A study of Mus musculus with 9 samples.

Results

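The genes described here are 10 genes of the unfolded protein response (UPR) in the endoplasmic reticulum (ER): the stress sensor Atf6, the transcription factor Xbp1, the chaperones Hspa5, Hsp90b1 and Dnajb9, the lectin chaperones Calr and Canx, and the protein disulfide isomerases Pdia3, Pdia4 and Pdia6. They were chosen by name, with no threshold on their values, and all 10 were found among the 15144 genes listed in the deposited tables and among the 11299 genes tested. RNA was sequenced from neonatal rat ventricular myocytes (NRVMs), which are heart muscle cells isolated from Sprague-Dawley rats aged 1 or 2 days. The cells were cultured for 48 h and then infected at a multiplicity of infection (MOI) of 50 with adenoviruses carrying LacZ (a bacterial enzyme serving as control), Nrf1 or Nrf2, with 3 libraries in each group. Nrf1 and Nrf2 are related stress-responsive transcription factors, and the comparison asks what each of them does to the NRVM transcriptome. The inserts were the coding regions of mouse Nrf1 and mouse Nrf2 behind a CMV promoter, which is not specific to any cell type, in a vector that also encodes a red fluorescent protein. All 3 groups, the control included, were therefore infected cells, and no uninfected cells were analysed here.

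Proteins that enter the ER are folded there by Hsp70 and Hsp90 family chaperones, by the lectins that hold glycoproteins, and by isomerases that form and rearrange disulfide bonds. When unfolded proteins accumulate, Hspa5 (BiP) leaves the sensors Ire1, Perk and Atf6. Ire1 splices Xbp1 mRNA, Atf6 is cut to release a transcription factor, and both products raise the transcription of ER chaperones through a promoter element called the ER stress response element (ERSE). Perk acts through translation and Atf4. In the heart this response accompanies ischemia and pressure overload. Counts per gene do not tell spliced from unspliced Xbp1 mRNA, nor whole from cut Atf6 protein, so the values below are transcript levels only.

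The promoters of the 10 genes are shown first, because the ERSE is the element through which Xbp1 and Atf6 act on many ER chaperone genes. The windows are those of the mouse orthologs from RefSeq (build GRCm38.p6), from 250 bases before to 50 bases after the transcription start, while the cells are rat cells. A window was at hand for 9 of the 10 genes and not for Atf6. The ERSE, read as CCAAT, then 9 bases of any kind, then CCACG, was searched on both strands. It occurred in 5 of these 9 genes (Hspa5, Hsp90b1, Calr, Canx and Pdia6), against 37 of 27025 genes with a window (0.137%). A match with 1 of the 10 fixed letters changed occurred in 3 of the 9 genes, Hsp90b1, Pdia3 and Pdia4, against 1.61% of all genes. Each stretch below reads 5' to 3' along the gene, ends before the transcription start, and holds the ERSE or its reverse complement in capitals. Those of Pdia3 and Pdia4 are the matches with 1 changed letter, and that of Hsp90b1 holds 2 exact copies.
Hspa5, chr2:34772000-34772068, plus strand: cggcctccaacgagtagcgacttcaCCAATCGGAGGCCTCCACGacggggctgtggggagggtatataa
Hsp90b1, chr10:86705508-86705681, minus strand: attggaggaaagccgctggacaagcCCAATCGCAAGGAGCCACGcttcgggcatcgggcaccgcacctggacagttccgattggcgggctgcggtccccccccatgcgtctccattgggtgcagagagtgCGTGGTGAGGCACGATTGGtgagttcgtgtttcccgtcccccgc
Calr, chr8:84847050-84847118, minus strand: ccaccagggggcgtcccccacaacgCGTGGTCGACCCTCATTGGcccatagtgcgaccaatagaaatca
Canx, chr11:50325775-50325843, minus strand: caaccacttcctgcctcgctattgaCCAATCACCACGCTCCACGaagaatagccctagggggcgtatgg
Pdia6, chr12:17266466-17266534, plus strand: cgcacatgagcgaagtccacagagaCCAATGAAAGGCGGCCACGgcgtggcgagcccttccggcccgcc
Pdia3, chr2:121413848-121413901, plus strand: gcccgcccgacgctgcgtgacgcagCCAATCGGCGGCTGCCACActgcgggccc
Pdia4, chr6:47813577-47813645, minus strand: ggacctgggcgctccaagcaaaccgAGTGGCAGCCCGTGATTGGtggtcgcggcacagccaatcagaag
The Hspa5 copy began 65 bases before the start, and the Pdia6 copy 98 bases before it. The UPR element core TGACGTG, searched on both strands, was found in Hspa5 alone of the 9 genes (2.22% of all genes). The ERSE-II, read as ATTGG, 1 base of any kind, then CCACG, was in 0 of the 9 (0.0444% of all genes). The antioxidant response element (ARE) core TGACNNNGC, the element that Nrf1 and Nrf2 bind, was found in Calr and Pdia3 and in 3781 of all 27025 genes. These are matches of letters and were not measured as binding sites. The ERSE is already known as an element of ER chaperone genes, so its counts beside all genes are a description and not a test.

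The deposited tables give 1 mean per group, and the whole reads of the single libraries were recovered from these means. A single set of 3 whole numbers fitted for 99.884% of the LacZ genes, 99.986% of the Nrf1 genes and 99.959% of the Nrf2 genes. The libraries, named a, b and c within each group, held 7721831 to 11955664 recovered reads, and the 10 genes had 882 to 22424 reads in a library, for which counting error alone is 3.37% to 0.668%. Levels are given as normalized reads, which are reads divided by the size factor of the library, and differences as the log2 of one group over the other with its standard error (SE) and the adjusted p from limma over 11299 genes. The labels do not say that the libraries came from separate cultures, so the p-values measure only the spread between these libraries, which may be technical. Nfe2l2, the gene that encodes Nrf2, was 67582 to 78808 normalized reads in the Nrf2 libraries against 3400 to 3494 in the LacZ libraries. No values for Nfe2l1, which encodes Nrf1, were at hand, so the overexpression of Nrf1 was not analysed here.

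With Nrf1, most of the 10 genes fell and a pair of them rose. Pdia4, Pdia6 and Xbp1 fell most, Hsp90b1, Canx, Atf6 and Calr fell less, Dnajb9 rose, and Hspa5 rose slightly. In all, 7 of the 10 genes fell and 2 rose at an adjusted p under 0.05, where 32.6% of all genes tested fell and 35.6% rose. With Nrf2, 3 genes fell (Pdia4, Xbp1 and Hsp90b1) and 2 rose (Dnajb9 and Hspa5), where 26.7% of all genes tested fell and 29.5% rose. The median log2 difference of the 10 genes was -0.20 with Nrf1 and -0.04 with Nrf2, beside 0.01 and -0.00 over all genes tested. Of the 5 genes with an exact ERSE, 4 fell with Nrf1 and Hspa5 rose, although the fall of Calr was lost in 4 of 9 fits that left out 1 library. With Nrf2, Hsp90b1 fell, Hspa5 rose, and Calr, Canx and Pdia6 were not called. The comparisons of Nrf1 and of Nrf2 with LacZ share their LacZ libraries. When reads were scaled by library totals, every log2 difference moved by -0.07 with Nrf1 and by -0.09 with Nrf2. The split was then 1 gene higher and 8 lower in each comparison, since Hspa5 no longer passed and Pdia3 did, as did Atf6, Calr, Canx and Pdia6 with Nrf2. Among all genes tested, the split with Nrf1 moved from 4023 higher and 3688 lower to 3384 and 4280. With Nrf2 it moved from 3332 higher and 3013 lower to 2561 and 4080.

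Xbp1 and Atf6 encode the transcription factors of this branch. Xbp1 stood at 1225, 1383 and 1221 normalized reads in LacZ libraries a, b and c, at 1010, 1011 and 1036 in Nrf1 libraries, and at 1035, 1046 and 1002 in Nrf2 libraries. Every Nrf1 and Nrf2 library was below every LacZ library, and the Nrf1 and Nrf2 values overlapped. Xbp1 fell by 0.32 on the log2 scale with Nrf1 (SE 0.048, limma, adjusted p = 7.66e-06) and fell by 0.31 with Nrf2 (SE 0.048, limma, adjusted p = 1.87e-05). The difference between Nrf2 and Nrf1 was 0.01, with a 95% interval (1.96 SE to either side) from -0.08 to 0.11 (limma, adjusted p = 0.844). Atf6 stood at 1458, 1520 and 1512 normalized reads in LacZ libraries, at 1310, 1332 and 1331 in Nrf1 libraries, and at 1412, 1440 and 1477 in Nrf2 libraries. The Nrf1 libraries lay below all others, whereas the Nrf2 values overlapped with LacZ. Atf6 fell by 0.18 on the log2 scale with Nrf1 (SE 0.038, limma, adjusted p = 0.000418). With Nrf2 the difference was -0.05, with an interval from -0.13 to 0.02 (limma, adjusted p = 0.2496), or -0.14 when reads were scaled by library totals (limma, adjusted p = 0.00463). Nrf2 was above Nrf1 by 0.12 (limma, adjusted p = 0.00955).

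Hspa5 encodes BiP, the main Hsp70 of the ER. It stood at 13125, 11425 and 12556 normalized reads in LacZ libraries, at 13255, 13580 and 13531 in Nrf1 libraries, and at 13416, 13144 and 13569 in Nrf2 libraries. No Nrf1 or Nrf2 library was below the highest LacZ library, although the gap to it was small beside the spread within LacZ. The log2 difference was 0.12 with Nrf1 (SE 0.038, limma, adjusted p = 0.00709) and 0.12 with Nrf2 (SE 0.038, limma, adjusted p = 0.0140), a rise of 8.79% and 8.15%. Both calls were lost when reads were scaled by library totals (log2 differences of 0.05 and 0.03, limma, adjusted p = 0.182 and 0.461). Without LacZ library b the difference with Nrf1 was 0.07 (limma, adjusted p = 0.0190), and the Nrf2 call was lost (0.06, limma, adjusted p = 0.0523). Nrf2 and Nrf1 differed by -0.01, with an interval from -0.08 to 0.07 (limma, adjusted p = 0.865).

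Hsp90b1 encodes Grp94, the Hsp90 of the ER. It stood at 19189, 17174 and 18605 normalized reads in LacZ libraries, at 15410, 15428 and 15131 in Nrf1 libraries, and at 16825, 16544 and 16843 in Nrf2 libraries. The 3 groups did not overlap, with LacZ highest and Nrf1 lowest. Hsp90b1 fell by 0.26 on the log2 scale with Nrf1 (SE 0.033, limma, adjusted p = 1.36e-06) and fell by 0.13 with Nrf2 (SE 0.033, limma, adjusted p = 0.00275). Nrf2 was above Nrf1 by 0.13 (limma, adjusted p = 0.00311). Hspa5 and Hsp90b1, whose mouse promoters both hold the ERSE shown above, thus moved in opposite directions under the main scaling.

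Dnajb9 encodes ERdj4, a J-domain cochaperone of Hspa5 and a known target of spliced Xbp1. It stood at 1001, 1013 and 1046 normalized reads in LacZ libraries, at 1411, 1364 and 1386 in Nrf1 libraries, and at 1554, 1612 and 1516 in Nrf2 libraries. The groups did not overlap, with LacZ lowest and Nrf2 highest. Dnajb9 rose by 0.44 on the log2 scale with Nrf1 (36.0%, SE 0.040, limma, adjusted p = 8.89e-09) and by 0.61 with Nrf2 (53.0%, SE 0.040, limma, adjusted p = 1.43e-10). Nrf2 was above Nrf1 by 0.17 (limma, adjusted p = 0.00132). These rises kept an adjusted p of at most 2.41e-07 and 8.28e-09 when any 1 library was left out of the limma fit.

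Calr and Canx encode calreticulin, which is soluble, and calnexin, which is anchored in the membrane, and both hold newly made glycoproteins through their sugars. Canx stood at 15328, 14790 and 15235 normalized reads in LacZ libraries, at 12772, 13077 and 12936 in Nrf1 libraries, and at 14906, 14786 and 14786 in Nrf2 libraries. The Nrf1 libraries were below all others, and the Nrf2 values overlapped with LacZ. Canx fell by 0.23 on the log2 scale with Nrf1 (SE 0.026, limma, adjusted p = 3.11e-07). With Nrf2 the difference was -0.03, with an interval from -0.08 to 0.02 (limma, adjusted p = 0.382), or -0.11 when reads were scaled by library totals (limma, adjusted p = 0.000356). Nrf2 was above Nrf1 by 0.20 (limma, adjusted p = 3.21e-06). Calr stood at 21024, 17997 and 19809 normalized reads in LacZ libraries, at 18170, 18346 and 17905 in Nrf1 libraries, and at 18588, 18497 and 18950 in Nrf2 libraries. LacZ library b lay within the Nrf1 range, so these groups overlapped. The Calr difference with Nrf1 was -0.11 (SE 0.039, limma, adjusted p = 0.0189), and it was no longer called without any 1 of LacZ libraries a or c or Nrf1 libraries a or c, with adjusted p = 0.130, 0.0643, 0.0538 and 0.0724 by limma. Without LacZ library b it was -0.17 (limma, adjusted p = 2.00e-06). With Nrf2 the difference was -0.07 (limma, adjusted p = 0.152), -0.13 without LacZ library b (limma, adjusted p = 8.35e-05) and -0.15 when reads were scaled by library totals (limma, adjusted p = 0.00102). Nrf2 and Nrf1 differed by 0.04, with an interval from -0.03 to 0.12 (limma, adjusted p = 0.381).

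The 3 protein disulfide isomerases did not move alike. Pdia3 (ERp57), which works with calnexin and calreticulin on glycoproteins, stood at 12524, 11988 and 12385 normalized reads in LacZ libraries, at 12159, 12498 and 12175 in Nrf1 libraries, and at 12441, 12060 and 12524 in Nrf2 libraries. The 3 groups overlapped fully. Its difference was -0.00 with Nrf1, with an interval from -0.06 to 0.05 (limma, adjusted p = 0.946), and 0.01 with Nrf2, with an interval from -0.05 to 0.06 (limma, adjusted p = 0.890). When reads were scaled by library totals, Pdia3 was called lower in both, at -0.07 and -0.08 (limma, adjusted p = 0.0148 and 0.0111). Pdia4 (ERp72) stood at 2699, 2498 and 2777 normalized reads in LacZ libraries, at 1806, 1797 and 1738 in Nrf1 libraries, and at 2042, 1964 and 2072 in Nrf2 libraries. The groups did not overlap. Pdia4 fell by 0.58 on the log2 scale with Nrf1 (SE 0.041, limma, adjusted p = 2.58e-10) and fell by 0.39 with Nrf2 (SE 0.041, limma, adjusted p = 1.27e-07), with Nrf2 above Nrf1 by 0.19 (limma, adjusted p = 0.000717). In linear terms its mean fell by 33.0% with Nrf1 and fell by 23.8% with Nrf2.

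Pdia6 (P5), an isomerase that binds Hspa5 and Ire1, stood at 6328, 5645 and 6135 normalized reads in LacZ libraries, at 4463, 4507 and 4508 in Nrf1 libraries, and at 5921, 5959 and 6032 in Nrf2 libraries. The Nrf1 libraries were far below the rest, and the Nrf2 values lay within the LacZ range. Pdia6 fell by 0.42 on the log2 scale with Nrf1 (SE 0.036, limma, adjusted p = 3.47e-09). With Nrf2 the difference was -0.01, with an interval from -0.08 to 0.06 (limma, adjusted p = 0.760), -0.06 without LacZ library b (limma, adjusted p = 0.0437) and -0.10 when reads were scaled by library totals (limma, adjusted p = 0.0138). The Nrf2 level was above the Nrf1 level by 0.41 (limma, adjusted p = 1.30e-08), the widest gap between the factors among the 10 genes.

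**Figure D1:**
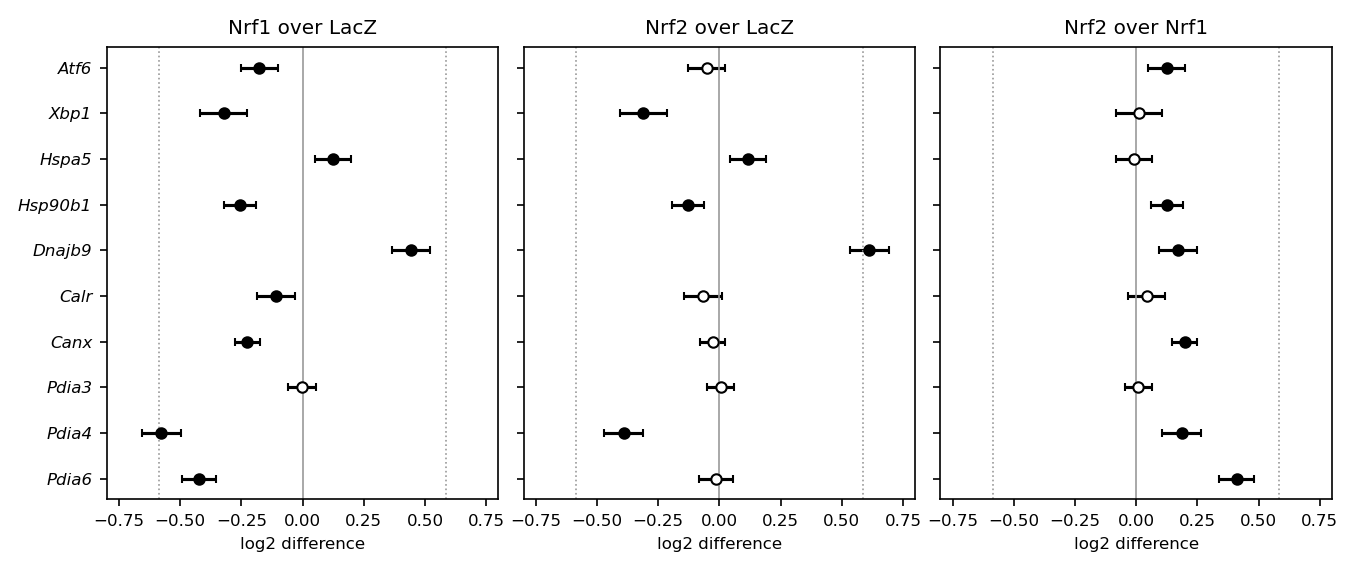
Log2 differences (x axis) of the 10 genes for Nrf1 over LacZ, Nrf2 over LacZ and Nrf2 over Nrf1. Bars are 95% intervals of 1.96 SE to either side, filled points passed an adjusted p of 0.05 by limma, and dotted lines mark 1.5-fold. Pdia6 and Canx were lower with Nrf1 and not called with Nrf2. When reads were scaled by library totals, both were called lower with Nrf2 as well, and the small rises of Hspa5 were not called.

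Setting Nrf2 against Nrf1 directly, 6 of the 10 genes were higher with Nrf2 (Pdia6, Canx, Pdia4, Dnajb9, Hsp90b1 and Atf6) and 0 were lower at an adjusted p under 0.05, where limma called 27.5% of all genes tested higher and 27.5% lower. By limma's unadjusted p under 0.05, the same count of 0 lower genes was found. The median difference was 0.13, beside -0.00 over all genes tested. Hspa5, Xbp1, Calr and Pdia3 were not called, with intervals that reached no further than -0.08 and 0.12.

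By size, 1 of the 30 differences went past 1.5-fold in the authors' own group means, that of Dnajb9 with Nrf2. With Nrf1, 0 of the 10 genes were past 1.5-fold, where 11.5% of 11220 genes were past it upward and 17.3% downward, and Pdia4 lay just inside. Re-centring on the median gene, or equal sums of the group means, put 1 gene past 1.5-fold with Nrf1. With Nrf2 it was 1 gene upward and 0 downward, where 9.14% of 11404 genes were past it upward and 10.4% downward, and equal sums of the group means left 0. Between Nrf2 and Nrf1 it was 0, where 11.5% of 11326 genes were past it upward and 4.98% downward.

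The spread was largest among the LacZ libraries. Over the 10 genes the coefficient of variation between libraries had a median of 5.53% in LacZ, 1.26% in Nrf1 and 1.81% in Nrf2. Between Nrf1 libraries the 10 genes differed by about as much as counting allows (chi-square per gene of 0.987 to 1.18), and between LacZ libraries by more (4.66 to 38.3). LacZ library b was the lowest of its group in Hspa5, Hsp90b1, Calr, Canx, Pdia3, Pdia4 and Pdia6 and the highest in Xbp1 and Atf6. Its summed cardiomyocyte markers, 140985 normalized reads, were also the lowest of the LacZ libraries (140985 to 162865), and its summed leukocyte markers, 1992, the highest (1374 to 1992). The part of this library in the results was measured by leaving it out. The counts with Nrf1 stayed at 2 higher and 7 lower, and those with Nrf2 became 1 higher and 5 lower. Among all genes tested, that fit called 3893 higher and 3548 lower with Nrf1, and 3141 and 2860 with Nrf2.

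Other cell types moved with the factors too. The summed level of the 10 genes was 91.0% of LacZ with Nrf1 and 97.5% with Nrf2. This sum was mostly Calr, Hsp90b1, Canx, Hspa5 and Pdia3, and it hides larger changes of less abundant genes. With Nrf1, for example, Pdia4 fell by 33.0% and Dnajb9 rose by 36.0%. The summed level of 10 fibroblast markers was 25.9% of LacZ with Nrf1 (30989 to 33411 against 122012 to 127894 normalized reads) and 53.2% with Nrf2 (63486 to 68743). Most of this sum was Col1a1 and Col3a1, whose LacZ means were 91586 and 26524 normalized reads, so its percentages mainly describe these collagen genes. All 10 of the fibroblast markers fell with Nrf1, and 8 of them fell with Nrf2. For these and the other marker counts here, 32.6% of all genes tested fell and 35.6% rose with Nrf1. With Nrf2 these shares were 26.7% and 29.5%. Leukocyte markers fell in 9 of 10 with each factor, and their sums were 52.8% and 57.6% of LacZ. The remaining leukocyte marker, Csf1r, named after its value was seen, rose by 0.46 with Nrf1 (limma, adjusted p = 0.00248). It was not called with Nrf2 (0.10, limma, adjusted p = 0.4999). Endothelial markers fell in 7 of 9 with Nrf1 and in 6 of 9 with Nrf2 (1 rose with each, or 0 with Nrf1 when scaled by library totals), and their sums were 74.2% and 76.5%. Cardiomyocyte markers, 10 of the 12 listed having values (Ttn and Nppa were not analysed here), summed to 98.8% and 112% of LacZ. With Nrf1, 6 of those 10 fell and 2 rose, and with Nrf2, 2 fell and 6 rose. No listed marker with values was at 0 in a whole group. In bulk RNA, fewer cells of a type and less RNA per cell cannot be told apart, and the part of other cell types in the levels of the 10 genes was not tested.

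**Figure D2:**
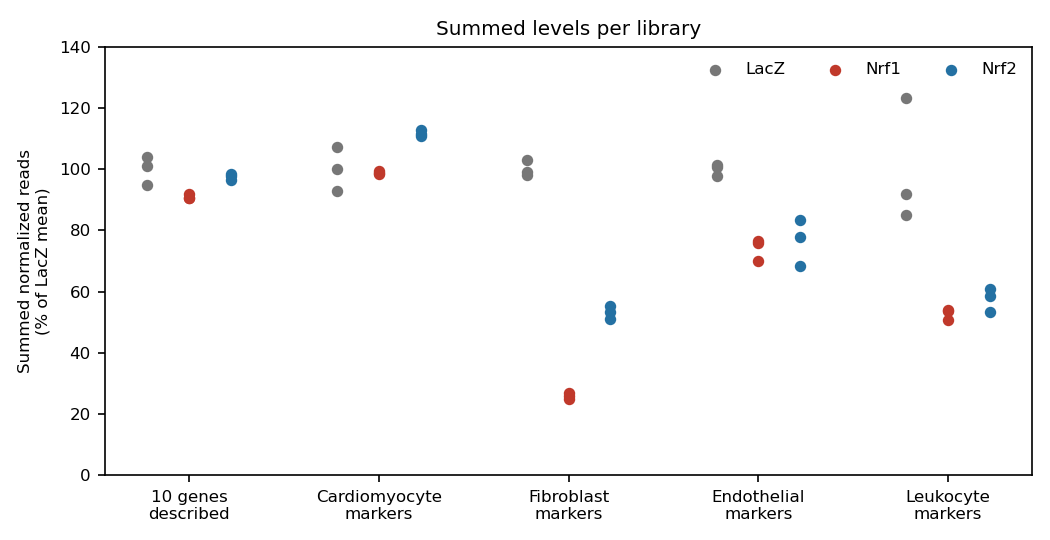
Summed normalized reads per library (y axis, percent of the LacZ mean) for the 10 genes and for markers of 4 cell types. Each point is 1 of 3 libraries per group. The fibroblast marker sum, mostly Col1a1 and Col3a1, stood at 25.9% of LacZ with Nrf1 and at 53.2% with Nrf2. The sum of the 10 genes stood at 91.0% and 97.5%, while single genes moved further.

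The other genes of the pathway were taken from lists by function. Among 8 other UPR sensors and transcription factors, 2 rose and 3 fell with Nrf1, and 1 rose and 3 fell with Nrf2. As for the lists that follow, these counts stand beside 35.6% of all genes tested rising and 32.6% falling with Nrf1, and 29.5% and 26.7% with Nrf2. The list counts scaled by library totals have another background. There, 3384 of 11299 genes were higher and 4280 lower with Nrf1, and 2561 and 4080 with Nrf2. The mRNAs of the other pair of sensors, Ern1 (Ire1) and Eif2ak3 (Perk), were not called with Nrf1 (log2 differences of -0.07 and -0.07, limma, adjusted p = 0.547 and 0.337). Ern1 fell by 0.33 with Nrf2 (limma, adjusted p = 0.0117). Creb3, a membrane-bound relative of Atf6, rose by 0.88 with Nrf1 (limma, adjusted p = 7.28e-12) and by 0.28 with Nrf2 (limma, adjusted p = 7.10e-05). Its relative Creb3l1, which is known from collagen-secreting cells, fell by 0.84 with Nrf1 (limma, adjusted p = 1.71e-09). Mbtps2, the site-2 protease that cuts Atf6, fell by 0.35 with Nrf1 (limma, adjusted p = 0.00802), whereas Mbtps1, the site-1 protease that also cuts Atf6, named after its value was seen, rose by 0.18 (limma, adjusted p = 0.000867).

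Among 26 other ER chaperones and cochaperones (of 28 listed, the rest being absent from the fit or low), 16 fell and 4 rose with Nrf1 (median -0.26, where 32.6% of all genes fell and 35.6% rose), and 12 fell and 4 rose with Nrf2 (median -0.10), or 15 and 2 when scaled by library totals. Over all genes, 26.7% fell and 29.5% rose with Nrf2. The largest changes by the rule for named genes were in Rcn3, Ppic and Fkbp7, with log2 differences of -1.67, -1.46 and -1.38 with Nrf1 (limma, adjusted p = 7.46e-14, 3.69e-14 and 3.66e-09). Rcn3 is a calcium-binding ER protein, and Ppic and Fkbp7 are proline isomerases. The remaining cochaperones of Hspa5 were split. Dnajb11 (ERdj3) and Dnajc3 (p58IPK) fell with Nrf1, with log2 differences of -0.66 and -0.52 (limma, adjusted p = 2.75e-11 and 1.14e-08), and the nucleotide exchange factor Hyou1 fell by 0.29 (limma, adjusted p = 3.71e-06). Dnajc10 (ERdj5) rose by 0.24 (limma, adjusted p = 2.00e-05). These Hspa5 partners, and Sdf2l1 and Hspa13 below, were chosen after their values were seen. Sdf2l1, a partner of Dnajb11, fell by 0.72 with Nrf1 (limma, adjusted p = 1.05e-08) and was not called with Nrf2 (0.06, limma, adjusted p = 0.449). Hspa13, another Hsp70 of the ER, rose by 0.56 with Nrf1 (limma, adjusted p = 4.34e-08).

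Among 14 tested of 20 other isomerases and oxidases listed, 6 rose and 6 fell with Nrf1 (median 0.03, or -0.04 when scaled by library totals), and 7 rose and 4 fell with Nrf2. Scaled by library totals, 4 were higher and 7 lower with Nrf1, and 3 higher and 5 lower with Nrf2. Txndc5 (ERp46) fell with both factors, with log2 differences of -0.999 and -0.67 (limma, adjusted p = 2.44e-12 and 1.86e-09). Prdx4, the ER peroxiredoxin, fell by 0.87 with Nrf1 (limma, adjusted p = 1.61e-11), and Tmx2, a membrane-bound thioredoxin-like protein, rose by 0.86 (limma, adjusted p = 4.85e-13). Among 17 tested of 19 genes of N-glycosylation and glucose trimming, whose products the lectins Calr and Canx read, 6 rose and 8 fell with Nrf1, and 4 rose and 7 fell with Nrf2, or 1 and 8 when scaled by library totals. Over all genes, 35.6% rose and 32.6% fell with Nrf1, and 29.5% and 26.7% with Nrf2. Dad1 rose by 0.50 with Nrf1 (limma, adjusted p = 4.75e-08), and Stt3b and Tusc3, which like Dad1 encode subunits of the oligosaccharyltransferase, fell, with log2 differences of -0.46 and -0.66 (limma, adjusted p = 1.84e-09 and 1.57e-08).

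More genes of ER import rose than fell. Of 23 tested of 26 genes for the signal recognition particle, the translocon and the signal peptidase, 17 rose and 4 fell with Nrf1 (median 0.41), and 12 rose and 4 fell with Nrf2 (median 0.17), or 11 and 8 when scaled by library totals. The shares over all genes were 35.6% higher and 32.6% lower with Nrf1, and 29.5% and 26.7% with Nrf2. The signal recognition particle genes Srp14 and Srp54a rose by 0.84 and 0.72 with Nrf1 (limma, adjusted p = 2.82e-12 and 2.47e-12), and Spcs1, a signal peptidase subunit, rose by 0.71 (limma, adjusted p = 1.00e-08). Of 24 genes of ER to Golgi transport, 14 rose and 7 fell with Nrf1 (median 0.12), and 8 rose and 4 fell with Nrf2, beside the same shares over all genes. Scaling by library totals changed these counts to 9 higher and 7 lower with Nrf1, and to 6 higher and 10 lower with Nrf2. That scaling moved all genes too, to 3384 higher and 4280 lower of 11299 with Nrf1, and to 2561 and 4080 with Nrf2. The coat genes Sec23b and Sar1b and the SNARE gene Sec22b rose by 0.73, 0.61 and 0.68 with Nrf1 (limma, adjusted p = 2.06e-09, 5.73e-11 and 1.71e-11).

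Targets of the Perk and Atf4 arm fell with both factors. Of 11 such genes tested of 12 listed, all 11 fell with Nrf1 (median -0.81), and 10 fell and 1 rose with Nrf2 (median -0.51). Asns, which makes asparagine, fell by 1.23 with Nrf1 (limma, adjusted p = 1.48e-14), and Trib3, a pseudokinase, and Atf3, a stress transcription factor, had log2 differences of -1.17 and -1.11 (limma, adjusted p = 4.66e-09 and 1.07e-09). The gene that rose with Nrf2, named here after its value was seen, was Slc7a11, a cystine transporter and known Nrf2 target (log2 difference 2.11, limma, adjusted p = 3.64e-15). The medians of this list lay below those of the 10 genes in both comparisons, and that difference was not tested.

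**Figure D3:**
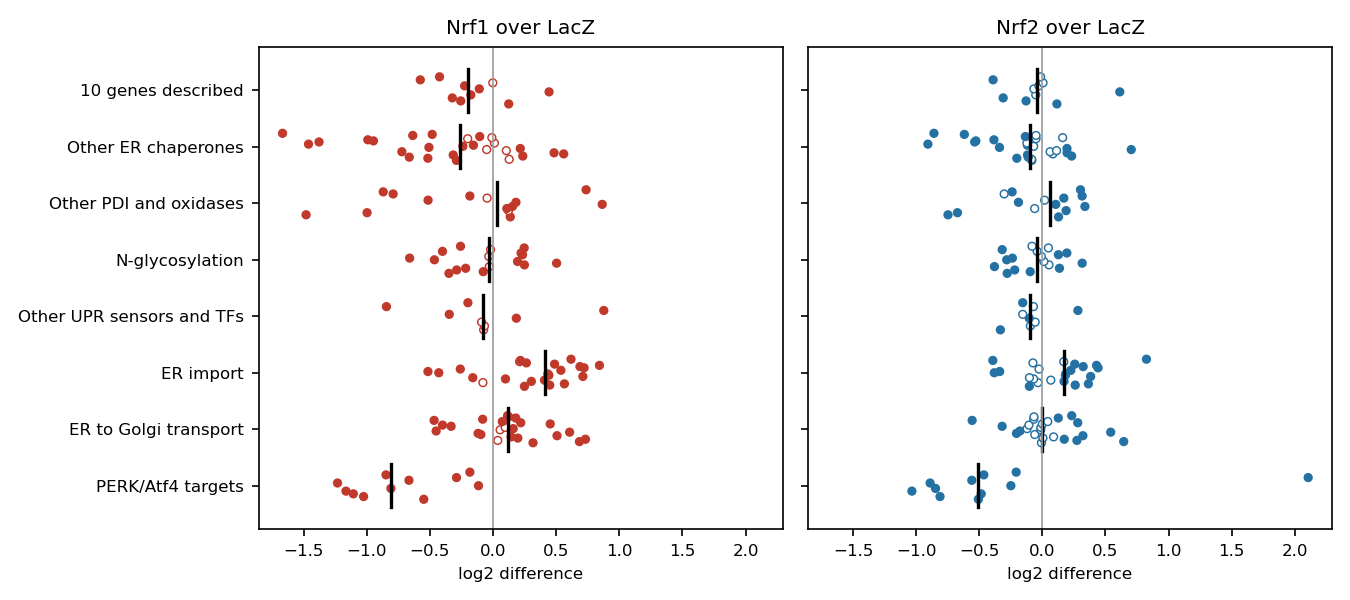
Log2 differences (x axis) of every tested gene in the 10 genes described and in 7 lists of related genes, for Nrf1 over LacZ and Nrf2 over LacZ. Points are genes, filled where limma's adjusted p was under 0.05, and vertical bars are list medians. The medians with Nrf1 ran from -0.81 for Perk and Atf4 targets to 0.41 for ER import.

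For Hspa5, the genes with the most similar pair of log2 ratios (Nrf1 over LacZ and Nrf2 over LacZ, from the authors' means) were sought among 2180 genes with an average mean of at least 1000 in both tables. The nearest were Copb2, Sf3b1, Taok1 and Emc3, together with a gene whose symbol a spreadsheet had turned into a date. Their distances from Hspa5 were 0.00557 to 0.0124 on the log2 scale. These distances are smaller than the SE of either Hspa5 difference by limma (0.038), so the order of the neighbours is not resolved. The other 9 genes described here were not among the 5 listed of 2180, which by itself says little about them.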

How the data were processed

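RNA was measured in 9 libraries of NRVMs, 3 each for LacZ, Nrf1 and Nrf2, grouped by the overexpressed gene in the labels. The labels name mouse as the organism, but the strain, the cell type and the genome build (Rnor 6.0) are of rat. The authors state in their methods that stranded mRNA libraries were read as 75-bp single-end reads, checked with FastQC 0.11.4, aligned with HISAT2 2.0.4, cleared of duplicates with SAMtools 0.1.18, counted with featureCounts 1.6.0 and compared with edgeR 3.20.5. The signal that the authors deposited in 3 tables is the mean normalized read count per gene and group, scaled separately for each pair of groups. The tables also hold the authors' fold changes and p-values, which were not used. No column of single samples was present (0).

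Each group mean is a sum of whole reads times 1 step per library. The steps were read from the lowest recurring values, and the whole reads that match the printed means in both tables of a group were searched for. The labels' replicate numbers cannot be tied to these libraries. For Nrf1 and Nrf2, reads solved from 1 table alone predicted the other table's mean for 14213 of 14213 and 14581 of 14581 genes. This check was not made for LacZ, where 15 genes had several solutions and 2 had none. No pair of libraries of a group agreed within sampling noise (chi-square over genes), so all 9 were counted.

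The design planned no test, because the tables were taken to hold group means only. The tests were added after the reads had been recovered. Reads were scaled by the median ratio over 9 libraries, genes with a mean of at least 10 normalized reads were kept (11299 of 14418 recovered in all 9 libraries), and log2(normalized reads + 0.5) was fitted for the 3 groups together with limma 3.58.1 (R 4.3.3) with a mean-dependent prior and Benjamini-Hochberg adjustment. The added 0.5 makes the log2 differences of low genes smaller. Recovery and limma were tested on simulated data. The limma simulation gave every group the same spread, whereas the LacZ libraries here spread more, so it did not test unequal spread. Differences of the members from limma and from the authors' means differed by at most 0.00518. Genes past 1.5-fold were counted among genes with an average mean of at least 10.

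The members and lists were chosen with earlier results of these data known. Besides the members and Nfe2l2, the genes named by rule were 3 in each list and the 5 nearest to Hspa5. Those 3 had the largest absolute log2 ratio of Nrf1 over LacZ (average mean of at least 100). Alternatives were other cutoffs, filters and centring and, chosen after seeing the data, library totals, a spread per group and leaving out each library. Duplicate removal can lower the counts of highly expressed genes, such as these, and its effect was not tested.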

Additional observations from a re-analysis of the deposited data

How the results depend on the processing

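No paired analysis was possible because the recovered libraries carry no replicate numbers. Leaving out each library in turn left 252 of 270 results of the 10 genes unchanged in direction and call, 5 lost the call (4 of Calr with Nrf1, 1 of Hspa5 with Nrf2), 2 gained it (Calr and Pdia6 with Nrf2, without LacZ library b) and 11 differences near 0 that were not called changed sign. Their log2 ranges were -0.0225 to 0.0105 (Pdia3 with Nrf1), -0.0164 to 0.0223 (Pdia3 with Nrf2), -0.0646 to 0.0174 (Pdia6 with Nrf2), and for Nrf2 over Nrf1 -0.0243 to 0.00703 (Hspa5) and -0.00442 to 0.0270 (Pdia3). Over these fits the number of the 10 genes called with Nrf2 ran from 1 to 2 higher and from 3 to 5 lower. Over all genes in these fits it ran from 3038 to 3314 higher and from 2712 to 3004 lower. A spread fitted per group and other filters on low reads changed 0 calls of 30 each. The spread per group was a single weight shared by all genes. Between LacZ libraries a and b the chi-square per gene was 38.3 for the 10 genes and 4.90 over 11290 genes. That fit therefore does not allow for the larger LacZ spread of the 10 genes themselves. Calls with a spread fitted for each gene and group were not tested. Scaling by library totals left 20 of 30 unchanged in direction and call. It gave 1 gene higher with Nrf1, 1 higher and 8 lower with Nrf2, and medians of -0.27 and -0.13 in place of -0.20 and -0.04, and Pdia3 with Nrf2 turned to -0.0801 (limma, adjusted p = 0.0111). For Nrf2 over Nrf1, Xbp1 and Pdia3 turned to -0.000844 and -0.00592 and were not called. By construction it shifts all genes alike. The split over all genes tested became 3384 higher and 4280 lower with Nrf1, and 2561 and 4080 with Nrf2. The cause of the difference in totals was not tested.

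With the authors' means, re-centring on the median gene gave medians of -0.26 with Nrf1 and 0.16 for Nrf2 over Nrf1, and equal sums of group means gave -0.26 with Nrf1 and -0.12 with Nrf2. Under either, 1 of the 10 genes went past 1.5-fold with Nrf1, and under equal sums 0 did with Nrf2. A cutoff of 0.32 on the log2 scale, in place of 0.58 for 1.5-fold, put 4, 2 and 1 of the 10 genes past it (Nrf1, Nrf2, and Nrf2 over Nrf1), and a 2-fold cutoff left 0 with Nrf2. Among the 7 lists, 32, 13 and 13 genes were past 1.5-fold, 9, 2 and 1 past 2-fold, and 59, 34 and 39 at 0.32 on the log2 scale. Among all genes, 3236, 2226 and 1864 were past 1.5-fold. These became 1468, 907 and 712 past 2-fold, 5828, 4580 and 4330 at 0.32 on the log2 scale, 4931, 3806 and 3393 with no filter, and 1820, 1121 and 901 with an average mean of at least 100. Fewer genes passed the stricter filter because fewer were counted. Depth set no limit for the 10 genes, which had at least 882 reads in every library.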
